A study of Mus musculus with 16 samples.

Results

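The genes of the circadian clock and of its direct output were followed in mouse hearts that had lost or kept the mineralocorticoid receptor in their cardiomyocytes. The 10 genes were taken by name through the transcript accession of each array feature: the period genes Per1, Per2 and Per3, the PAR bZIP output genes Dbp, Tef and Hlf, the nuclear receptor genes Nr1d1 and Nr1d2, the cryptochrome gene Cry1, and Npas2. They hold 16 of the 41174 probes on the array and count as 10 of 31758 genes. Arntl, the partner gene of the clock's activator, is not among the 10 and is given beside them as a reference. Whole-heart RNA came from 16 male mice of the C57BL/6 background, 4 in each of 4 groups. The cardioMRKO mice carried a floxed receptor allele and the αMHC-Cre transgene, whose promoter acts in cardiomyocytes, and were taken at 1 month or at 2 months of age. The controls at each age were littermates, labelled MRflox, with the floxed allele and no Cre. Every group therefore carried the floxed allele, and the presence of Cre and the loss of the receptor cannot be told apart. Each heart was read on 1 single-colour Agilent array. No label gives the hour of day at which a heart was taken, and its part in any result was not tested.

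The circadian clock is a loop of transcription that runs in nearly every cell, cardiomyocytes included. The proteins ARNTL and CLOCK, or ARNTL and NPAS2, pair and activate genes through a DNA element called the E-box, among them the period and cryptochrome genes, Nr1d1, Nr1d2, Dbp, Tef and Hlf. The PER and CRY proteins then inhibit that pair, and the REV-ERB receptors made from Nr1d1 and Nr1d2 repress Arntl and Npas2. DBP, TEF and HLF activate a further layer of genes through the D-box, Per genes included. In tissues with a running clock, the transcripts of Arntl and Npas2 peak at another time of day than those of Dbp and the period genes.

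RefSeq promoter windows of build GRCm38.p6, from 250 bases before to 50 after a gene's start, were matched by symbol for 9 of the 10 genes; Per2 was not matched. They are shown because most of these genes moved together between single hearts in the results below. The exact E-box CACGTG, which reads the same on both strands, lay in a window of 3 of the 9 genes, Per1, Tef and Cry1, against 7.15% of 32851 windows. The D-box TTATGTAA, searched on both strands, lay at 2 places in the window of Per3, against 0.938% of all windows. The element AGGTCA, used by REV-ERB receptors and also searched on both strands, was found for Nr1d2 and Per1, against 16.3% of windows. Tef has an E-box in each of its 2 windows, of which 1 is shown, and Per1 in 1 of its 2. A gene was counted if any of its windows matched, so the shares of genes and of windows are unlike measures. Cry1 was not among the genes that moved together, and Dbp, Nr1d2, Hlf and Per3, which were, had no exact E-box in their windows. Each match describes letters and not a bound site. The 250 bases before each start follow, 5′ to 3′ on the gene's strand, with the E-box in capitals for Per1, Tef and Cry1 and the D-box in capitals for Per3.
Per1, chr11:69098699-69098948, plus strand, E-box from position −166 relative to the start: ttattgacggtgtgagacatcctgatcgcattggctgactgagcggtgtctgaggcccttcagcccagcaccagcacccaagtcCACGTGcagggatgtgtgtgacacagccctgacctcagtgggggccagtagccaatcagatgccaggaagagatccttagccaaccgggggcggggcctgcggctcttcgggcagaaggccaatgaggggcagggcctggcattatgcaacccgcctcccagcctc
Tef, chr15:81802423-81802672, plus strand, E-box from position −127: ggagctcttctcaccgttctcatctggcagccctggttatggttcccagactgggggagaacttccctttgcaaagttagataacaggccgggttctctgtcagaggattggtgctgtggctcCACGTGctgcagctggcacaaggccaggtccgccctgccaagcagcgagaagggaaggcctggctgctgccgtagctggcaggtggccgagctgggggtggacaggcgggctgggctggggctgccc
Cry1, chr10:85185055-85185304, minus strand, E-box from position −60: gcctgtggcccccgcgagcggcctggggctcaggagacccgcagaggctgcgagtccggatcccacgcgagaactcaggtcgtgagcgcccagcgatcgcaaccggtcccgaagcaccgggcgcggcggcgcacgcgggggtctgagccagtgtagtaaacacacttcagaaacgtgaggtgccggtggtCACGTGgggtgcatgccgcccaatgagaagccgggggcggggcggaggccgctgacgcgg
Per3, chr4:151044666-151044915, minus strand, D-boxes from positions −205 and −158: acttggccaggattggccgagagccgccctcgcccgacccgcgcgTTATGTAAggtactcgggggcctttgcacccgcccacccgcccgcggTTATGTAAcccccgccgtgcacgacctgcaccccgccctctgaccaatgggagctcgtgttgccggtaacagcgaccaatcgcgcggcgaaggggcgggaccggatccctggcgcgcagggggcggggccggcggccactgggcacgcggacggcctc

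Between 62.5% and 71.7% of probes were well above background on an array, no spot was saturated, and the number of arrays limits the precision. All 6 cardiomyocyte markers were above background on every array. The 6 airway and lung epithelium markers ranged from a mean level of −6.16 to 5.47 between arrays. Spike-in signal was taken relative to the array's 75th percentile, as the log2 deviation from the mean of all arrays. By that measure 2 arrays were low, −0.81 in MRflox replicate 4 and −0.55 in cardioMRKO replicate 3, both at 2 months. The 75th percentile itself was the lowest of all arrays in the former (527) and the highest in the latter (1091). A low value in cardioMRKO replicate 3 therefore need not mean low spike-in signal before scaling. The deleted gene Nr3c2 differed by −0.17 (SE 0.14) between cardioMRKO and MRflox at 1 month and by −0.43 (SE 0.14) at 2 months, with limma adjusted p of 0.987 and 0.122. Whether its probe lies in the deleted part is not known here, and other cells of the whole heart keep the gene. The 4 arrays of a group shared 1 slide that held no other group, and the slides cannot be told apart from the groups. Levels here are log2 of the processed signal relative to the array's 75th percentile, so 1 unit is a 2-fold difference, and a level is compared only within a probe.

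The 3 period genes encode the repressors of the clock, and all 3 differed widely between single hearts of a group. Per1 stood at 2.25, −0.44, −0.07 and 0.78 in MRflox replicates 1 to 4 at 1 month and at 1.68, 1.77, 0.23 and 0.48 in cardioMRKO. At 2 months Per1 was 0.37, −0.50, 0.06 and 0.98 in MRflox and 0.60, −0.27, −0.25 and 1.56 in cardioMRKO. MRflox replicate 1 and cardioMRKO replicates 1 and 2 were the 3 highest hearts at 1 month, and the 4 groups overlapped. Per2 gave 0.39, −2.69, −2.63 and −1.58 in MRflox and 0.07, −0.02, −2.17 and −1.64 in cardioMRKO at 1 month. Its levels at 2 months were −1.30, −3.84, −2.89 and −1.56 in MRflox and −0.87, −3.89, −3.16 and −1.57 in cardioMRKO. The same 3 hearts were the highest of all 16 in Per2, and replicate 2 was the lowest in both groups at 2 months. The Per3 levels at 1 month were −2.52, −4.33, −4.82 and −4.24 in MRflox and −2.89, −2.90, −4.60 and −3.90 in cardioMRKO, again highest in these 3 hearts. By 2 months Per3 read −4.47, −5.43, −4.53 and −4.95 in MRflox and −4.47, −5.84, −3.68 and −4.95 in cardioMRKO, where 3 of 4 arrays were above background. The highest of these 8 levels, −3.68, came from cardioMRKO replicate 3, the array with the highest 75th percentile and a low spike-in signal relative to it.

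Dbp, Tef and Hlf encode the PAR bZIP activators through which the clock reaches its output genes. Dbp was 6.96, 5.98, 5.67 and 5.99 in MRflox and 6.69, 6.71, 6.16 and 6.04 in cardioMRKO at 1 month. At 2 months its levels were 5.67, 4.12, 5.76 and 6.29 in MRflox and 5.96, 4.70, 3.98 and 5.72 in cardioMRKO. All 4 cardioMRKO hearts at 2 months lay below all 4 at 1 month, a lack of overlap that 19.9% of all genes tested had, whereas the MRflox groups overlapped. Tef was 3.47, 2.18, 1.95 and 2.57 in MRflox and 3.14, 3.27, 2.31 and 2.66 in cardioMRKO at 1 month, then 2.32, 2.02, 2.21 and 2.97 in MRflox and 2.58, 1.77, 1.85 and 2.50 in cardioMRKO at 2 months. For Hlf the levels at 1 month were 2.05, 0.78, 0.70 and 1.27 in MRflox and 1.71, 1.73, 0.58 and 1.15 in cardioMRKO. They were 0.74, 0.74, 0.93 and 2.04 in MRflox and 0.66, 0.33, 0.63 and 0.79 in cardioMRKO at 2 months. In Tef and Hlf the highest hearts at 1 month were again MRflox replicate 1 and cardioMRKO replicates 1 and 2. MRflox replicate 4 was the highest at 2 months in both, on the array with the lowest spike-in signal and the highest airway mean.

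**Figure D1:**
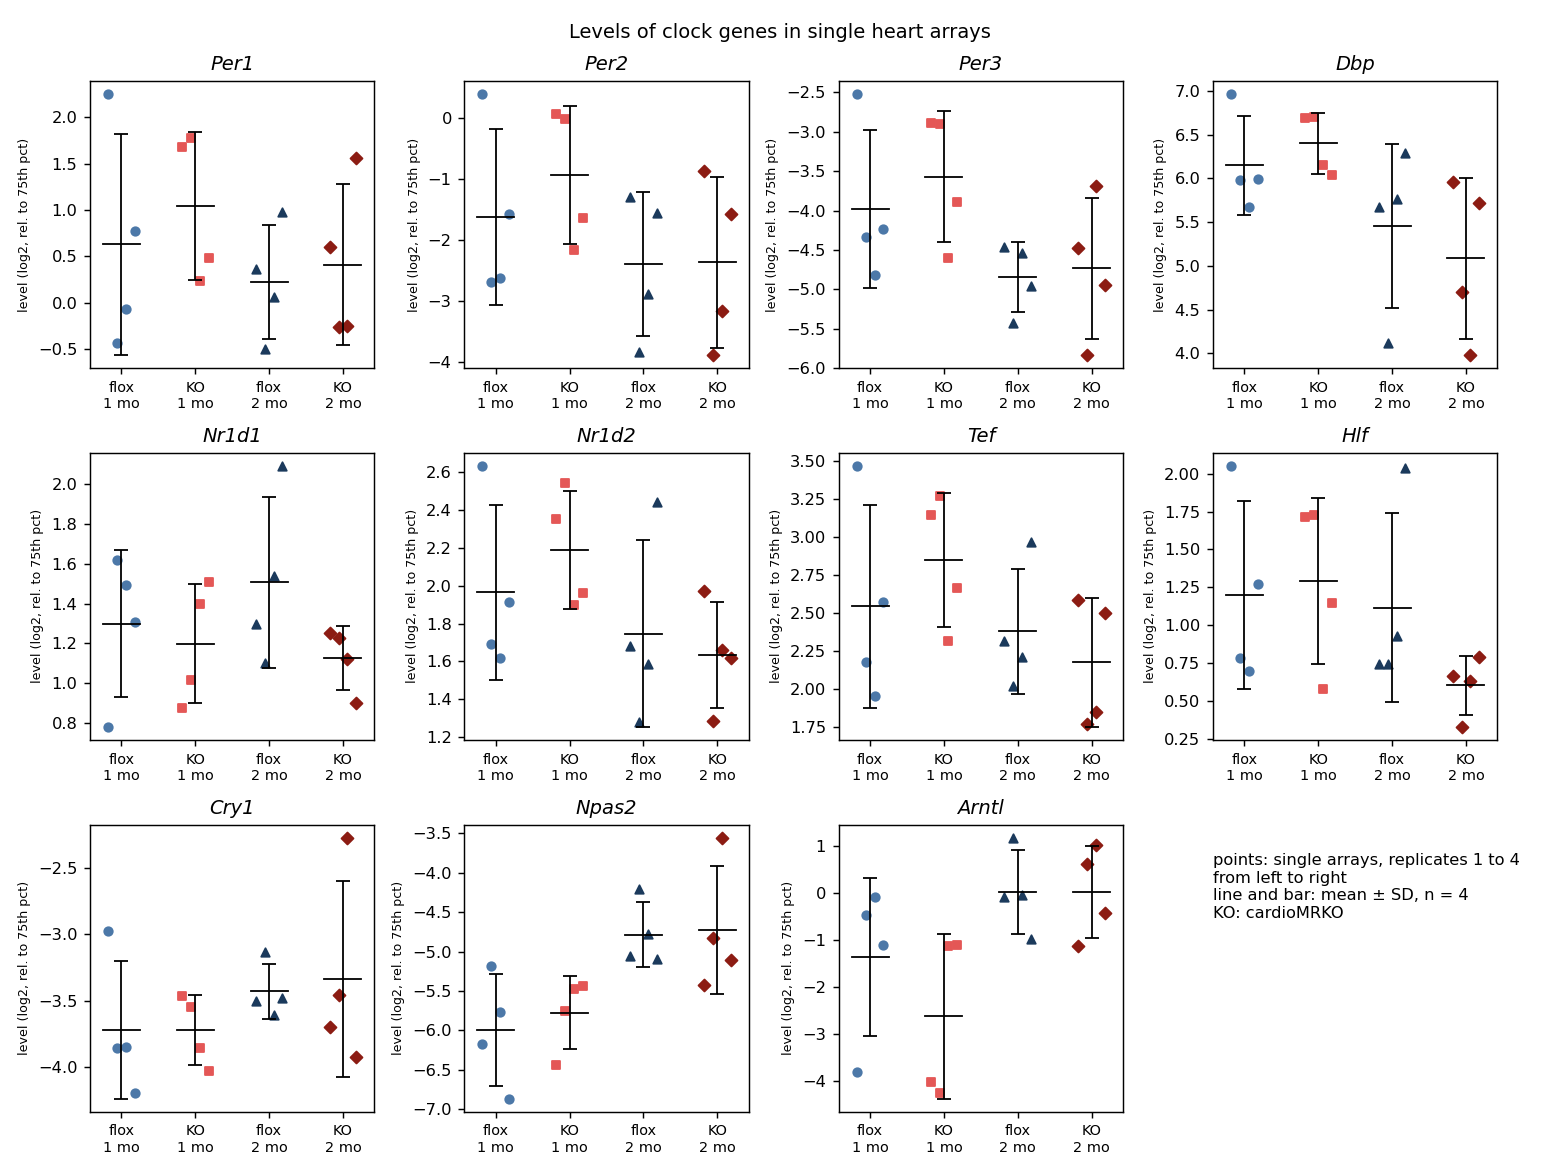
Levels of the 10 clock genes and Arntl in single hearts, on the log2 scale relative to the array's 75th percentile, by group (KO stands for cardioMRKO), each group showing replicates 1 to 4 from left to right with its mean and SD (n = 4). Each gene has its own vertical axis, and in Per2 the hearts run from −3.89 to 0.39 with all 4 groups overlapping.

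Nr1d1 and Nr1d2 encode the receptors REV-ERBα and REV-ERBβ, which repress Arntl, and they did not share a pattern. Nr1d2 was 2.63, 1.69, 1.62 and 1.92 in MRflox and 2.35, 2.55, 1.90 and 1.96 in cardioMRKO at 1 month. It gave 1.68, 1.28, 1.58 and 2.44 in MRflox and 1.97, 1.29, 1.66 and 1.62 in cardioMRKO at 2 months. High Nr1d2 thus fell in the same 3 hearts at 1 month as high Per2. Nr1d1 was lowest in those hearts, with 0.78, 1.62, 1.49 and 1.31 in MRflox and 0.88, 1.02, 1.40 and 1.51 in cardioMRKO at 1 month. At 2 months Nr1d1 was 1.30, 1.10, 1.54 and 2.09 in MRflox and 1.25, 1.23, 1.12 and 0.90 in cardioMRKO.

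Cry1 encodes a repressor that works with the PER proteins, and Npas2 an activator that can take the place of CLOCK; both gave dim signals. Cry1 was −2.98, −3.86, −3.85 and −4.20 in MRflox and −3.47, −3.55, −3.86 and −4.03 in cardioMRKO at 1 month. Its levels were −3.50, −3.13, −3.61 and −3.48 in MRflox and −3.70, −3.46, −2.27 and −3.93 in cardioMRKO at 2 months. Npas2 stood at −6.18, −5.18, −5.76 and −6.87 in MRflox at 1 month, where 1 of 4 arrays was above background, and at −6.43, −5.75, −5.48 and −5.43 in cardioMRKO, where 2 of 4 were. All 8 arrays at 2 months were above background, with −5.06, −4.20, −4.78 and −5.09 in MRflox and −5.42, −4.82, −3.55 and −5.11 in cardioMRKO. Npas2 passed the filter on dim probes only through the 2-month groups, where it was high, so a difference between its ages was favoured by that filter. The highest values of Cry1, −2.27, and of Npas2, −3.55, came from cardioMRKO replicate 3 at 2 months. That array also had the highest 75th percentile and a low spike-in signal relative to it.

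Arntl, the reference, was −3.80, −0.46, −0.08 and −1.10 in MRflox and −4.01, −4.25, −1.12 and −1.10 in cardioMRKO at 1 month. At 2 months it was −0.08, 1.18, −0.03 and −0.98 in MRflox and −1.12, 0.62, 1.03 and −0.42 in cardioMRKO. The 3 hearts with the lowest Arntl were MRflox replicate 1 and cardioMRKO replicates 1 and 2 at 1 month, the hearts with the highest Per2, Per3, Dbp and Tef. These 3 belonged to both genotypes and to 1 age. The correlations and the age differences are given below without them as well.

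**Figure D2:**
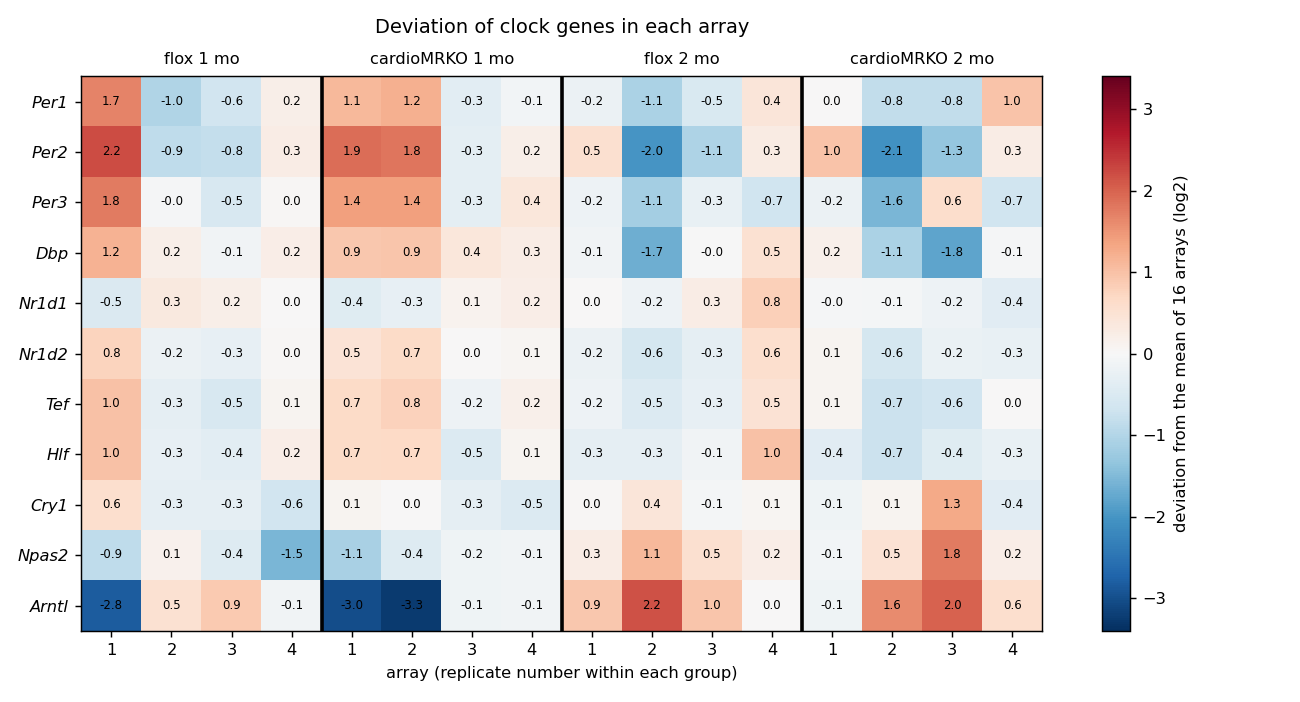
Deviation of each clock gene and of Arntl in each of 16 arrays from its mean over all arrays (log2, colour and number), with arrays ordered by group and replicate. At 1 month, MRflox array 1 and cardioMRKO arrays 1 and 2 are red in Per1, Per2, Per3, Dbp, Nr1d2, Tef and Hlf and blue in Arntl.

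Of the 10 genes, 4 have further probes, 6 in all, and these did not always follow the brightest probe used above. Over the deviations of the 16 arrays from their group means, 7 of 8 pairs of probes of 1 gene had an adjusted p under 0.05 by Pearson r and 6 of 8 by Spearman rho, in an exact permutation within groups. Per2 failed by both, and its 2 probes had a Pearson r of 0.55 (adjusted p = 0.0576) and a Spearman rho of 0.56 (adjusted p = 0.0518). The dimmer Per2 probe was −2.86, −3.41, −2.97 and −3.82 in MRflox at 1 month and −2.19, −2.58, −2.22 and −2.15 at 2 months, so it was higher in all 4 older hearts (28% of all genes tested did not overlap here), while the brighter probe overlapped between the ages. In cardioMRKO the dimmer probe was −3.30, −3.14, −3.36 and −3.55 at 1 month and −2.54, −2.80, −2.82 and −2.45 at 2 months, also without overlap (19.9% of all genes tested). The dimmest Nr1d1 probe did not overlap between the ages in MRflox either, with a mean of −3.52 (SD 0.27, n = 4) at 1 month and −2.68 (SD 0.33, n = 4) at 2 months. The dimmest Tef probe was −3.93, −4.40, −4.39 and −3.78 in MRflox and −3.49, −3.76, −2.47 and −3.52 in cardioMRKO at 2 months, again without overlap (10.2% of all genes tested), where the brightest Tef probe overlapped. In exact two-sided permutation tests of each of the 16 probes in 4 comparisons, 64 tests in all, the smallest p that 4 arrays against 4 can give is 0.0286. After Benjamini-Hochberg adjustment the lowest p was 0.261, so no probe passed by that test.

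The spread between hearts of a group was large for most of the clock genes. Spread here and the correlations below use the brightest probe of each gene. The residual SD, which pools the spread within the 4 groups, had a median of 0.575 over the 10 genes and of 0.245 over all 20065 genes tested. It was above the median of all genes in 10 of 10 and above their 90th percentile (0.686) in 4 of 10. Per2 had the largest SD of the 10, 1.29, at the 98.8th percentile of all genes, and its highest and lowest hearts differed 19.3-fold. The dimmer Per2 probe did not show this spread, with SDs within groups from 0.17 (cardioMRKO, 1 month) to 0.44 (MRflox, 1 month). After Per2, Per1 followed with 0.89, Per3 with 0.82 and Dbp with 0.74, between the 91.4th and the 94.8th percentile. Npas2 had an SD of 0.62, Hlf of 0.53, Tef of 0.50, Cry1 of 0.48 and Nr1d2 of 0.40. Nr1d1 had the smallest, 0.33, at the 66.4th percentile, with a 2.47-fold range over the 16 hearts. Arntl, at 1.38 and the 99.2nd percentile, ranged 42.9-fold.

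A group of 7 genes went up and down together from heart to heart, and Arntl went the opposite way. Each heart was taken as its deviation from its group mean, which leaves out any difference between groups, and the correlation was tested by an exact two-sided permutation of hearts within groups (331776 orders), adjusted over 55 pairs, 45 among the 10 genes and 10 with Arntl. By Pearson r, 28 of 55 pairs passed an adjusted p of 0.05, 19 of them positive and 9 negative, and by Spearman rho 32 did. Among Per1, Per2, Per3, Dbp, Nr1d2, Tef and Hlf, 19 of 21 pairs passed, with r from 0.37 to 0.94. These 7 genes were set apart after their values were seen.

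The closest of these pairs were Per1 and Tef, with r = 0.94 and rho = 0.94 (adjusted permutation p = 0.00102 and 0.00112), and Nr1d2 and Tef, with r = 0.92. Per2 followed Tef with r = 0.92 and Dbp with r = 0.82 (adjusted permutation p = 0.00292; rho = 0.81). The 2 pairs that did not pass were Per3 with Per1 (r = 0.62, adjusted permutation p = 0.0753) and Per3 with Dbp (r = 0.37, adjusted permutation p = 0.238). Against Arntl, all 7 were negative and passed, with r from −0.93 for Tef to −0.70 for Per3 and rho from −0.87 to −0.70. Dbp and Arntl gave r = −0.79 and rho = −0.83, with an adjusted permutation p of 0.000497 for r. Leaving out the 2 hearts farthest from the median of the first gene left r with Arntl between −0.92 and −0.80 for these 7 genes.

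**Figure D3:**
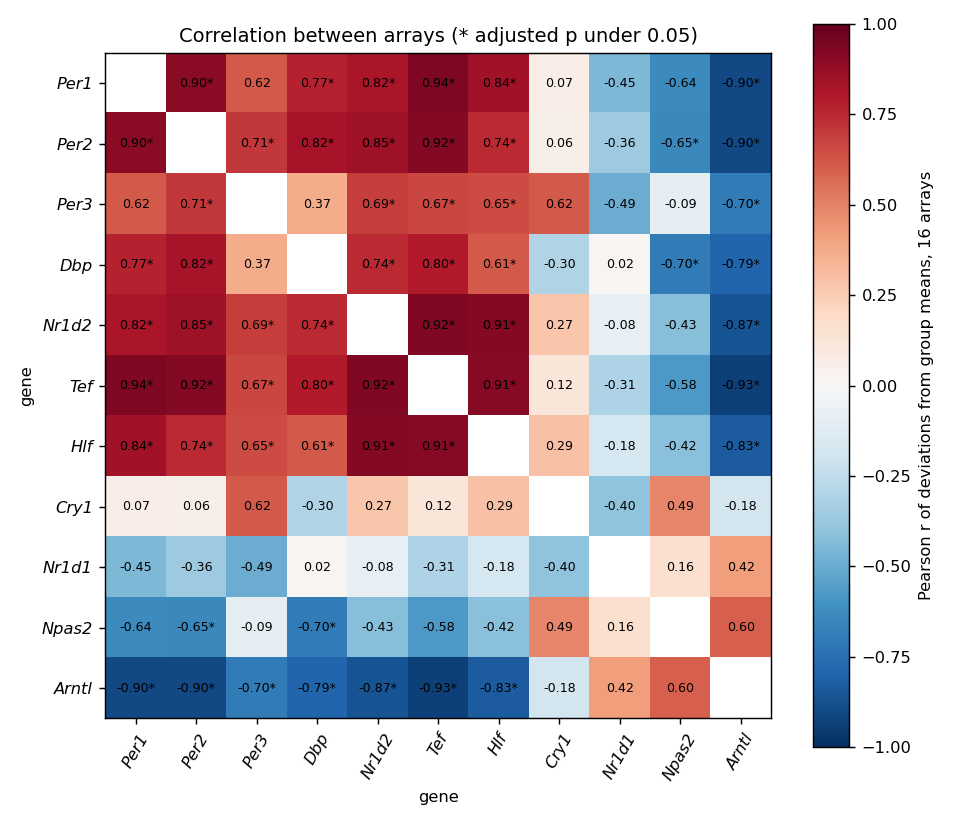
Pearson r between the deviations of 2 genes from their group means over 16 arrays, for the 10 clock genes and Arntl, with a star where the adjusted p of the exact permutation test is under 0.05. The block of Per1, Per2, Per3, Dbp, Nr1d2, Tef and Hlf is positive throughout, and each of these 7 is negative with Arntl.

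Cry1, Nr1d1 and Npas2 lay outside that group. Cry1 and Nr1d1 passed in no pair, and their r with Arntl was −0.18 and 0.42. Npas2, which shares a repressor with Arntl, passed with Per2 (r = −0.65, adjusted permutation p = 0.0431) and with Dbp (r = −0.70, adjusted permutation p = 0.0177), in the direction that Arntl had. Without the 2 hearts farthest in the other gene, r was −0.65 with Per2 and −0.44 with Dbp. For Dbp these were replicate 2 of MRflox and replicate 3 of cardioMRKO at 2 months. At 1 month Npas2 was above background on 1 of 4 MRflox and 2 of 4 cardioMRKO arrays, which limits these r. Npas2 with Arntl gave r = 0.60 and an adjusted permutation p of 0.0520, and rho = 0.65 with 0.0197.

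**Figure D4:**
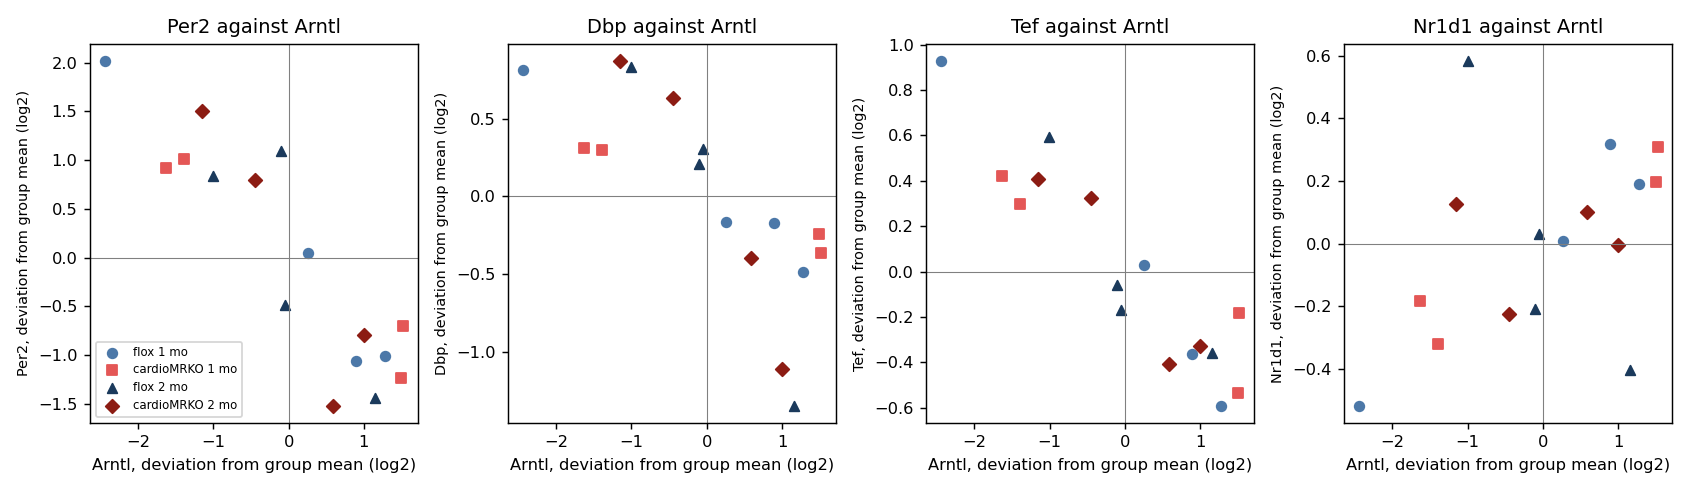
Deviations of Per2, Dbp, Tef and Nr1d1 (vertical axes, log2) against those of Arntl (horizontal axes, log2) from the group means, 1 point per array, with colour and shape giving the group. Per2, Dbp and Tef fall as Arntl rises, with r of −0.90, −0.79 and −0.93, and Nr1d1 (r = 0.42) does not pass the test.

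Since Arntl levels left a gap between −3.80 and −1.12, the correlations were run again over the 13 hearts without the 3 of lowest Arntl, and within each age. Over the 13 hearts 12 of 55 pairs passed. Dbp with Arntl gave r = −0.95 (adjusted permutation p = 0.0199), Tef with Arntl −0.91 and Per2 with Arntl −0.87 (both 0.0376), and Npas2 with Arntl 0.78 (0.0376). Per3 with Arntl was −0.16 over these 13 hearts, with an adjusted permutation p of 0.814. Dbp with Per2 was 0.80 and no longer passed (0.0723). All 21 pairs among the 7 genes stayed positive, with r from 0.07 to 0.86, and all 7 stayed negative with Arntl. The pairs of Per3 with the others of the 7 ran from 0.07 (Dbp) to 0.40 (Per2), and none of them passed.

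Within the 8 hearts at 1 month 38 of 55 pairs passed, and the 7 genes had r from 0.90 to 0.99 with each other and from −0.97 to −0.94 with Arntl. Within the 8 hearts at 2 months none passed after adjustment, although 18 had an unadjusted permutation p under 0.05. There, 576 orders allow no p below 0.00174. All 7 genes were negative with Arntl, from Dbp at −0.97 and Tef at −0.93 to Hlf at −0.62 and Per3 at −0.11. Per3 with Arntl had an unadjusted permutation p of 0.828, and its r with the others of the 7 ran from 0.06 (Dbp) to 0.38 (Per2). For Nr1d1, singled out after its values were seen, the sign differed between the ages. Its r with Arntl was 0.96 at 1 month (adjusted permutation p = 0.0257) and −0.56 at 2 months (0.268), and its r with Dbp was −0.93 (0.0289) and 0.52 (0.382). By Spearman rho neither passed at 1 month, with 0.83 for Arntl (adjusted permutation p = 0.0700) and −0.76 for Dbp (0.0826). The 3 hearts of lowest Arntl were all at 1 month. Over the 13 hearts without them, r of Nr1d1 was −0.46 with Arntl (adjusted permutation p = 0.331) and 0.48 with Dbp (0.362). Cry1 with Dbp also changed sign, with r = 0.90 at 1 month (adjusted permutation p = 0.0413) and −0.77 at 2 months (0.132). By Spearman rho neither passed, with 0.57 (adjusted permutation p = 0.222) and −0.67 (0.184). Without the 2 hearts farthest in Dbp, r was 0.58 at 1 month and −0.60 at 2 months. The difference between the ages was not tested. Without its 2 farthest hearts, r of Nr1d1 with Arntl at 2 months was 0.03.

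No measured property of the arrays passed against these genes after adjustment. Of 55 relations of the 10 genes and Arntl with the airway mean, the spike-in signal, the 75th percentile, the mean of 8 immediate early genes and the cardiomyocyte marker mean, 0 passed by Pearson r after adjustment. The lowest adjusted permutation p was 0.103, for Nr1d2 with the immediate early genes (r = 0.66), and Arntl with them had r = −0.74 (0.158). By Spearman rho none passed either. The lowest adjusted permutation p was then 0.0727, for the immediate early genes with Per2 (rho = 0.75), Per3 (0.80) and Nr1d2 (0.75). At 1 month their mean was highest in the 3 hearts of lowest Arntl (0.80, 1.20 and 1.58), followed by 0.78 in cardioMRKO replicate 3. The cause was not tested.

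Genes with a value on all 16 arrays were then ranked by their correlation with Dbp. Of 19739 genes, 1.2% had an absolute r of 0.8 or more with Dbp over the 16 deviations, among them 1 of the 9 other clock genes, Per2. With Arntl as the reference the share was 0.927%, and 5 of the 10 genes were in it. Outside the 10, the named genes most like Dbp were Ciart, a repressor of the clock (r = 0.94, with an 82.2-fold range over the hearts), Apex2 (0.92), 5730522E02Rik (0.92), Asphd2 (0.91) and G0s2 (0.91), an inhibitor of fat breakdown. The most opposed were Adam19 (r = −0.95), Smyd5 (−0.91), Alkal2 (−0.90), Chmp6 (−0.88) and Ankrd33b (−0.87). These r are descriptions over 16 arrays that share their hybridisation and are given with no p. Of the other clock genes, Bhlhe40, a repressor that binds E-boxes, had r = 0.86 with Dbp. Clock had r = 0.79 with Arntl, and Cry2 had −0.73. Of the 9 heart output genes, Coq10b (−0.88), Klf15 (−0.85) and Dgat2 (−0.84) were most opposed to Arntl. Coq10b takes part in the use of coenzyme Q, Klf15 encodes a regulator of cardiac metabolism and repolarisation, and Dgat2 makes triglycerides.

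Loss of the receptor in cardiomyocytes was compared first at each age, and no clock gene passed. At 1 month 0 of 10 genes were called by limma at an adjusted p under 0.05, where 0.0947% of all genes were. Unadjusted, 0 of 10 passed, against 1207 of 20065 genes. Differences, as cardioMRKO minus MRflox, ran from −0.10 for Nr1d1 to 0.69 for Per2, with 8 of 10 above 0 and a median of 0.24, against 0.018 over all genes. Most of these genes moved together between hearts, so they do not count as separate observations. Of the 3 hearts of lowest Arntl, cardioMRKO held replicates 1 and 2 and MRflox replicate 1. Per2 had an SE of 0.84 and a 95% interval from −1.12 to 2.50, Per1 a difference of 0.41 (SE 0.58) and Per3 one of 0.41 (SE 0.54). Tef differed by 0.31 (SE 0.33), Dbp by 0.25 (SE 0.48), Nr1d2 by 0.23 (SE 0.27) and Npas2 by 0.22 (SE 0.41). Hlf was at 0.09 (SE 0.35) and Cry1 at −0.0065 (SE 0.32). Nr1d1, the least variable, had the narrowest interval, from −0.58 to 0.38. Arntl differed by −1.26 (SE 0.90, adjusted p = 0.964).

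At 2 months 0 of 10 genes were called, where 3.54% of all genes were. Again 0 of 10 passed unadjusted, against 3777 of 20065 genes. Hlf had the largest difference, −0.51 (SE 0.35, limma adjusted p = 0.454), followed by Nr1d1 at −0.38 (SE 0.22, limma adjusted p = 0.378) and Dbp at −0.37 (SE 0.48). Without the 2 arrays of low spike-in signal the Dbp difference was 0.28. Tef differed by −0.20 (SE 0.33), Nr1d2 by −0.11 (SE 0.27), Per1 by 0.18 (SE 0.58), Per3 by 0.11 (SE 0.54), Cry1 by 0.09 (SE 0.32), Npas2 by 0.06 (SE 0.41) and Per2 by 0.02 (SE 0.84). The median was −0.045, against −0.081 over all genes. The interval for Per2 ran from −1.78 to 1.83 and that for Nr1d1 from −0.86 to 0.10, so differences of several fold in Per2 were not detectable with these hearts.

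Averaged over both ages 0 of 10 genes were called (1.14% of all genes), and 0 of 10 were called for a genotype difference that changed with age (0.743% of all genes). Unadjusted, 0 passed in both, against 2689 and 2267 of 20065 genes. No clock gene separated the genotypes without overlap by its brightest probe at 1 month, where 7.64% of all genes did, or at 2 months, where 10.2% did.

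**Figure D5:**
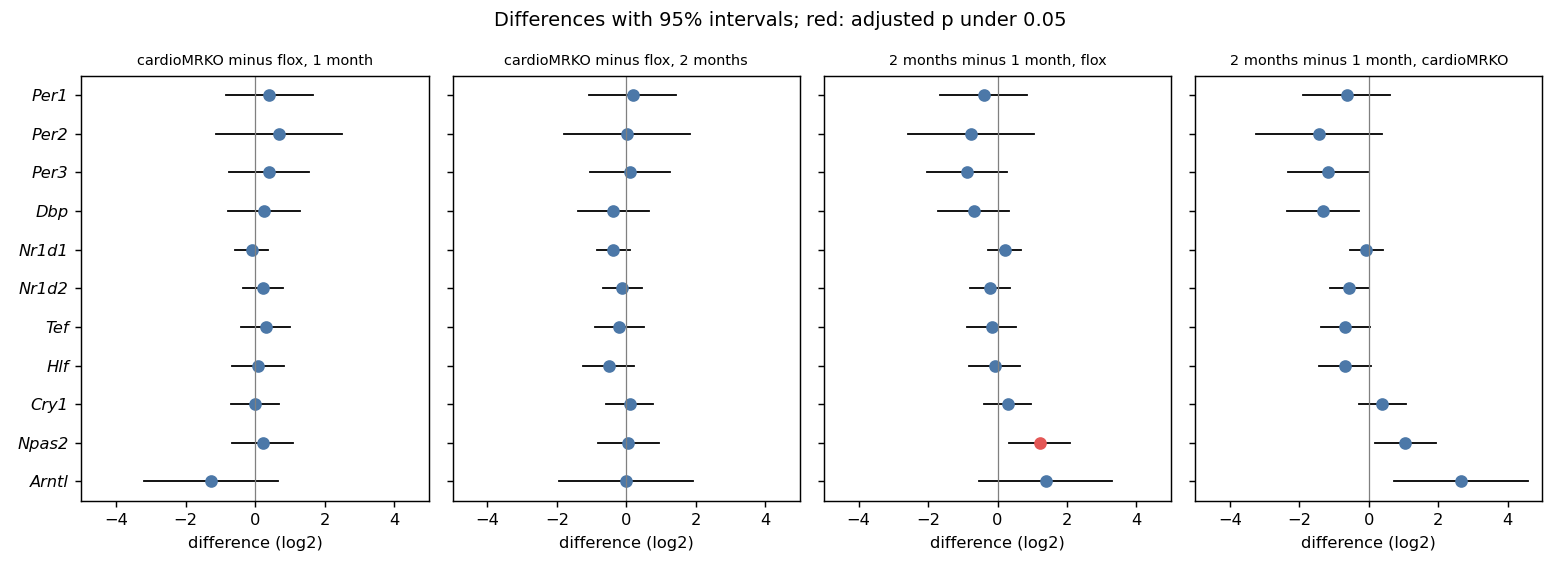
Differences in level (log2) of the 10 clock genes and Arntl with their 95% intervals from the fit across 16 arrays, for cardioMRKO minus MRflox (flox) at each age and for 2 months minus 1 month in each genotype. Npas2 in MRflox (1.21, red) is the only one of the 10 genes with an adjusted p under 0.05.

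The ages were compared within each genotype, on hearts that also differ in slide and in markers of other cell types. The airway mean ran from −6.16 to 2.93 in MRflox at 1 month and from 2.25 to 5.47 at 2 months, and from −5.88 to 2.05 and from 0.19 to 2.94 in cardioMRKO. Of all genes 22.7% were called between the ages in MRflox and 10.2% in cardioMRKO. Between the ages 5 of 6 airway genes were called higher in MRflox (median of the 6, 7.14) and 0 of 6 in cardioMRKO (3.24). Of 6 B and T cell markers 2 were called higher in each genotype. Of 4 fibroblast markers 2 were called lower in each, the collagen genes Col1a1 (−1.16 in cardioMRKO) and Col3a1 (−1.02 in MRflox). The other 2 were not called, and they were higher in MRflox and lower in cardioMRKO. Apart from the fit with the airway mean, the part of all these markers in the results was not tested. In MRflox 1 of 10 genes was called, where 22.7% of all genes were, and 1 of 10 passed unadjusted, against 6927 of 20065. That gene was Npas2, with a difference of 1.21 from 1 to 2 months (SE 0.41, 95% interval from 0.34 to 2.09, limma adjusted p = 0.0459). Since 1 of 4 arrays at 1 month was above background and the gene entered the fit through the 2-month groups, the call is given as a description and the size is not exact. The call was lost with quantile normalisation (0.89, limma adjusted p = 0.182) and without the 3 hearts of lowest Arntl (1.15, 0.111). It was also lost when any 1 of 12 of the 16 arrays was left out, with the difference then between 0.92 and 1.32. The difference was 0.39 with normexp (limma adjusted p = 0.0287) and 2.16 with the airway mean in the fit (0.0182). The other 9 genes did not pass, with differences from −0.87 (SE 0.54) for Per3, −0.77 (SE 0.84) for Per2 and −0.69 (SE 0.48) for Dbp to 0.29 (SE 0.32) for Cry1. Arntl differed by 1.38 (SE 0.90, limma adjusted p = 0.298).

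In cardioMRKO 0 of 10 genes were called, where 10.2% of all genes were, and 3 of 10 had an unadjusted limma p under 0.05. Of all 20065 genes 5011 had one, so a count of 3 is no result about the 10 genes. The 3 were Dbp, with a difference of −1.31 (SE 0.48, limma adjusted p = 0.103), Npas2, with 1.05 (SE 0.41, limma adjusted p = 0.126), and Per3, with −1.16 (SE 0.54, limma adjusted p = 0.196). Per2 differed by −1.43 (SE 0.84), Hlf by −0.69 (SE 0.35), Tef by −0.67 (SE 0.33), Per1 by −0.63 (SE 0.58) and Nr1d2 by −0.56 (SE 0.27). Nr1d1 was at −0.07 (SE 0.22) and Cry1 at 0.39 (SE 0.32). The median was −0.65, against 0.00096 over all genes, but most of these genes moved together between hearts. With array weights Per3 (−1.59, limma adjusted p = 0.0296), Dbp (−1.19, 0.0457) and Nr1d2 (−0.63, 0.0442) were called. With the airway mean in the fit Npas2 was called instead (1.50, limma adjusted p = 0.0269). Dbp did not overlap between the ages in cardioMRKO, as was so for 19.9% of all genes. The 3 hearts of lowest Arntl were all at 1 month, and the 2 age comparisons use separate hearts. Arntl differed by 2.64 (SE 0.90, limma adjusted p = 0.0787), and it was called with array weights (2.50, 0.0416), with the replicate number as a block (2.64, 0.0445) and without MRflox replicate 1 at 1 month (2.64, 0.0412). Without the 3 hearts of lowest Arntl no gene was called in cardioMRKO. The differences were then −1.01 for Dbp (limma adjusted p = 0.423), −0.49 for Per3 (0.687), −0.47 for Per2 (0.861), 0.73 for Npas2 (0.525) and 1.13 for Arntl (0.381).

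Other genes of the loop and of its output were read from lists. Of 17 other clock genes 14 were tested, and 0 were called between the genotypes at 1 month (0.0947% of all genes) or at 2 months (3.54%). Of 9 clock-linked heart output genes 0 were called between the genotypes at either age. With such low shares of all genes, neither count of 0 is a result about its list. Between the ages 2 of the 9 output genes were called in MRflox and 1 of 9 in cardioMRKO, near the 22.7% and 10.2% of all genes. These counts are no result about the list either. In MRflox Nampt, which makes a precursor of NAD (0.77, SE 0.18, limma adjusted p = 0.00637), and Dgat2 (0.44, SE 0.14, limma adjusted p = 0.0346) rose with age. Pdk4, which restrains glucose oxidation, rose in cardioMRKO (0.89, SE 0.21, limma adjusted p = 0.0149).

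Genes induced by corticosteroids, whose receptors include the deleted one, and immediate early genes were read as 2 further lists. Of 7 corticosteroid-responsive genes tested, 0 were called between the genotypes at 1 month (0.0947% of all genes) and 1 at 2 months (3.54%), Cdkn1a, a cell cycle inhibitor (0.98, SE 0.23, limma adjusted p = 0.0364). With age 0 of 7 were called in MRflox (22.7% of all genes) and 1 in cardioMRKO (10.2%), Lcn2 (1.78, SE 0.43, limma adjusted p = 0.0182). Of 8 immediate early genes 0 were called between the genotypes at either age (0.0947% and 3.54% of all genes). Between the ages 1 was called in each genotype (22.7% and 10.2% of all genes). It was Fosb, which rose by 1.49 in MRflox and 0.81 in cardioMRKO (SE 0.17, limma adjusted p = 0.000138 and 0.00735).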

How the data were processed

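Whole-heart RNA of 16 mice was read on Agilent single-colour arrays. Per the labels' protocols, 500 ng of RNA was labelled with Cy3. The submitters' processing notes name Agilent Feature Extraction 9.5, whereas the file headers give version 12.0.0.7. The deposited values are intensities on a linear scale: the processed signal, background-corrected by the authors' software per the file headers, and the median signals of spot and local background. The mean signal was not used here, so normexp (offset 50) was run on the median signals. The deposited series table held the same processed intensities. Features were named through their accession with the RefSeq table of GRCm38.p6.

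Spots of a probe were averaged, levels were set to log2 minus the array's 75th percentile, and probes well above background on all 4 arrays of a group were kept. The brightest probe of each gene entered 1 limma fit (version 3.58.1, R 4.3.3) over 16 arrays and 20065 genes, tested on simulated data, with two-sided p adjusted by Benjamini-Hochberg and called under 0.05. Intervals are 95%. The 10 genes and all lists were chosen with earlier results of these data known; named were the 10 genes, Arntl, up to 4 called genes of a list by smallest p, and the 5 genes most like and most opposed to Dbp. Bhlhe40, Clock, Cry2, Coq10b, Klf15, Csnk1e, Rora and, for its correlation, Dgat2 were chosen after their values were seen. The age comparison of the other clock genes is not reported here. Correlations were computed as described above. Replicate numbers were checked as pairs: same-numbered hearts had r from −0.31 to 0.36, so they were not taken as pairs. Alternatives were the background correction, normalisation, filter, probe rule, array weights, fewer arrays, the replicate block and the airway mean. Without the 3 hearts of lowest Arntl, within 1 age and the tests of single probes were chosen after seeing the data.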

Additional observations from a re-analysis of the deposited data

Results flagged for a closer look

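The Hlf level in MRflox replicate 4 at 2 months was 2.04, while the other 3 hearts of its group lay between 0.74 and 0.93. Its gap to the nearest heart was 0.854 of the group's range, above Dixon's 95% critical value for 4 samples. It was the only such value among 44 sets of 4 hearts (the 10 genes and Arntl in 4 groups), where chance alone marks about 1 in 20. The same array had the lowest spike-in signal (−0.81) and the highest airway mean (5.47), whose part in the value was not tested.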

How the results depend on the processing

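The 0 calls between genotypes held at each age, on average and in the difference between ages under all alternatives run. In MRflox the 1 call between ages (Npas2) became 0 with quantile normalisation, no filter, only probes above background on all arrays (where Npas2 is not tested), only the 8 MRflox arrays and without the 3 hearts of lowest Arntl, and 0 to 1 leaving out each array. In cardioMRKO 0 calls became 3 with array weights and 1 with the airway mean. The replicate block kept 1 call in MRflox (Npas2 1.21, adjusted p = 0.0196) and 0 for the 10 genes elsewhere, and Arntl passed with it between ages in cardioMRKO (adjusted p = 0.0445); same-numbered hearts correlated best in 10 of 24 cases. The 28 correlated pairs became 12 without the 3 hearts of lowest Arntl and 0 within 2 months, and 22 to 30 leaving out 1 array. The spread kept its value within the range counted as the same under all alternatives. Dim signal limits Npas2, whose difference was 0.39 with normexp.

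Differences that were not called changed sign as follows, and the cause was not tested. Between genotypes at 1 month, Hlf became −0.083 with the airway mean and −0.055 without the 3 hearts, Cry1 became 0.10, 0.095, 0.18 and 0.022 with the airway mean, array weights, the mean of probes and without the 3 hearts, and Npas2 became −0.031 with normexp. Between genotypes at 2 months, the airway mean gave −0.13 for Npas2 and −0.19 for Arntl, and array weights gave −0.28 for Per3, 0.17 for Dbp, 0.065 for Nr1d2, −0.18 for Cry1, −0.39 for Npas2 and −0.51 for Arntl. The mean of probes gave −0.17 for Per2 and 0.20 for Tef, and normexp gave −0.040 for Per2, −0.13 for Per3, −0.19 for Npas2 and −0.017 for Arntl. Leaving out the 2 arrays with low spike-ins, Per3 was −0.28, Dbp 0.28, Nr1d2 0.11, Tef 0.10, Cry1 −0.28, Npas2 −0.43 and Arntl −0.67. Between ages in MRflox, array weights gave −0.12 for Nr1d1, the mean of probes 0.11 for Per2, and leaving out the 3 hearts 0.14 for Per1, 0.0057 for Nr1d2, 0.14 for Tef and 0.20 for Hlf. Between ages in cardioMRKO, the mean of probes gave 0.066 for Nr1d1 and leaving out the 3 hearts 0.058 for Per1.

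Leaving out 1 array at a time also turned signs. At 1 month between genotypes the ranges were −0.27 to 0.0071 for Nr1d1, −0.078 to 0.37 for Hlf, −0.17 to 0.24 for Cry1 and −0.066 to 0.50 for Npas2. At 2 months they were −0.20 to 0.43 for Per1, −0.48 to 0.53 for Per2, −0.24 to 0.48 for Per3, −0.27 to 0.12 for Nr1d2, −0.26 to 0.29 for Cry1, −0.33 to 0.29 for Npas2 and −0.33 to 0.39 for Arntl. Between ages in MRflox they were −0.76 to 0.14 for Per1, −0.45 to 0.0057 for Nr1d2, −0.36 to 0.14 for Tef and −0.40 to 0.20 for Hlf, and in cardioMRKO −0.18 to 0.028 for Nr1d1.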

Other observations

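Both arrays of low spike-in signal relative to the 75th percentile had a low level of Csnk1e, the gene of a kinase that acts on the PER proteins. That percentile was the lowest of all arrays in MRflox replicate 4 and the highest in cardioMRKO replicate 3. Csnk1e was singled out after its values were seen. Its level was −0.0040 in MRflox replicate 4 and 1.25 in cardioMRKO replicate 3 at 2 months. The other hearts of these groups lay at 3.63, 3.93 and 3.91 and at 3.56, 3.58 and 3.61. Rora, an activator of Arntl, was −2.58 in MRflox replicate 4 and 0.13, 0.06 and −0.13 in the other hearts of that group.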
